A study of Mus musculus with 32 samples.

Results

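The acute phase proteins described here are the products of 10 mouse genes that were chosen by name: the serum amyloid A genes Saa1, Saa2 and Saa3, the orosomucoid genes Orm1, Orm2 and Orm3, haptoglobin (Hp), lipocalin 2 (Lcn2), and the pentraxins C-reactive protein (Crp) and serum amyloid P component (Apcs). All 10 were present among the 41585 gene entries of both count tables, and all 10 passed the filter on low counts in females and in males. RNA was sequenced from the livers of wildtype (WT) C57BL/6J mice and of Cyp2b-null mice, in which Cyp2b9, Cyp2b10 and Cyp2b13 had been deleted with CRISPR/Cas9. From 10 weeks of age the mice were fed for 8 weeks either normal chow (ND) or CDAHFD, a high-fat diet without choline in which L-amino acids replace protein, with 62% fat and 0.1% methionine. This gave 4 libraries in each of 8 groups: ND-fed WT, CDAHFD-fed WT, ND-fed Cyp2b-null and CDAHFD-fed Cyp2b-null females, and the same 4 groups of males. WT mice were purchased and Cyp2b-null mice came from the investigators' own line, so genotype and source of the mice cannot be told apart. CDAHFD differs from ND in fat, choline, methionine and form of protein together, so a diet effect belongs to the whole diet.

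The acute phase response is the change in the blood proteins made by the liver during inflammation, infection or injury. Interleukin-6 acts on hepatocytes through STAT3, and interleukin-1 and tumor necrosis factor act through NF-kB and the C/EBP transcription factors, and together they raise the transcription of genes for positive acute phase proteins while albumin and other negative acute phase proteins fall. In mice the serum amyloid A proteins and serum amyloid P component are strong responders, while Crp, the major acute phase protein in humans, responds weakly.

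Promoter sequence is shown for the 6 members whose promoters held a match to the C/EBP letters TTGCNNAA. Orm1 was not among the promoters searched, so the letters cannot be set against the difference in diet response between Orm1 and Orm2 described below. Each line gives the 140 bases from -220 to -81 before the start site in the RefSeq table of GRCm38.p6, 5′ to 3′ on the strand of the gene, with the match in capitals.
Saa1, chr7:46743061-46743200, minus strand: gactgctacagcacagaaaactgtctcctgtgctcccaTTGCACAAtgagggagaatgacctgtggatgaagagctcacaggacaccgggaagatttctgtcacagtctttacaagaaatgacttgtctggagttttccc
Saa2, chr7:46751613-46751752, plus strand: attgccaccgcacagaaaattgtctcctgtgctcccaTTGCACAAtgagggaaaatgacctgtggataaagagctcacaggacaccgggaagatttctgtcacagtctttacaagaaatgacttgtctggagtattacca
Saa3, chr7:46715757-46715896, minus strand: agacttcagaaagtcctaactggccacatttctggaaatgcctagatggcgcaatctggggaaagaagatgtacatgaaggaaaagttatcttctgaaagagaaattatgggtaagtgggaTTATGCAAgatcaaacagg
Orm2, chr4:63362229-63362368, plus strand: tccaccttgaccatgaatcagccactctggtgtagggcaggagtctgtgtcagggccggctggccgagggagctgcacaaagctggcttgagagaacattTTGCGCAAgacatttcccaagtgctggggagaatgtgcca
Orm3, chr4:63355938-63356077, plus strand: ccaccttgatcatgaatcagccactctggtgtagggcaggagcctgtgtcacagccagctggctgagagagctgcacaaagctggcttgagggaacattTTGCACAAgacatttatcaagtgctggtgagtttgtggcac
Lcn2, chr2:32387820-32387959, minus strand: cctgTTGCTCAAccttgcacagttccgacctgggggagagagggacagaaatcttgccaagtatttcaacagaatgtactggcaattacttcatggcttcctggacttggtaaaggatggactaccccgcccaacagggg
The Saa1 and Saa2 stretches carried the same 8 letters 1 base apart, at -182 and -183, and the Orm2 and Orm3 matches began at -120 and -121. The match in Saa3 began at -99 and read on the opposite strand, and that in Lcn2 began at -216. In Orm2 the match was the same on both strands. Promoters of 8 members were in the table (250 bases before to 50 after the start), and those of Orm1 and Hp were not used here. The letters TTGCNNAA were found on either strand in 6 of these 8 promoters and in 10.8% of all 32851 promoters. The STAT3 letters TTCNNNGAA were found in 1 of 8, at -244 in Apcs, and in 8.3% of all, and the consensus of NF-kB in 0 of 8 and in 8.46% of all. A match is a description of the letters and not a binding site. Promoter starts of Saa1, Saa3 and Orm3 lay inside the RefSeq span of the gene.

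The genes stand in clusters. Saa3 (chr7:46711998-46719615), Saa1 (chr7:46740497-46743181) and Saa2 (chr7:46751833-46754313) neighbor each other, as do Orm1 (chr4:63344556-63348163), Orm3 (chr4:63356069-63359506) and Orm2 (chr4:63362449-63365877). Crp (chr1:172698056-172699966) and Apcs (chr1:172893961-172895054) share chromosome 1, Lcn2 is at chr2:32384637-32387739 and Hp at chr8:109575128-109579172. Saa1 and Saa2 transcripts were 94.39% identical over 606 aligned bases, with a longest identical run of 99 bases, and Orm1 and Orm2 transcripts 90.97% over 775 bases with a longest run of 141. No window of 150 bases was shared by any pair within these families, but how the authors counted reads that map more than once is not given in the sources used here, so the split between Saa1 and Saa2 and between the Orm genes carries that uncertainty.

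Library totals ran from 2906411 to 10166959 counts on genes, so that 3 counts, the floor of detection, correspond to a CPM (counts scaled to a common library size) of 1.03 in the shallowest library and of 0.295 in the deepest. The floor covers counting error only. CPM values below were scaled with TMM factors within the table of each sex. Deletion was checked first: Cyp2b13, at 342 to 425 CPM in ND-fed WT females, was at 0 to 0.26 CPM in all 8 Cyp2b-null female libraries, and Cyp2b10, at 5.97 to 14.5 CPM in ND-fed WT males, was at 0.207 to 0.984 CPM in ND-fed Cyp2b-null males. In CDAHFD-fed WT males Cyp2b9 (13.6 to 67.9 CPM) stood above the 0.404 to 0.615 CPM of CDAHFD-fed Cyp2b-null males. In ND-fed males Cyp2b9 was low in both genotypes and overlapped (0 to 3.22 CPM in WT and 0.872 to 2.28 CPM in Cyp2b-null mice). Cyp2b10 overlapped in CDAHFD-fed males (0 to 1.22 CPM in WT and 0 to 0.615 CPM in Cyp2b-null mice). Summed CPM of 5 hepatocyte markers (Alb, Apoa1, Cps1, Cyp2e1 and Ttr) was high in every library, from 106657 to 194880 on ND and from 55766 to 119141 on CDAHFD. A bulk liver sample does not tell fewer cells of a type from less RNA per cell.

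CDAHFD raised most of the 10 genes in both sexes and both genotypes. Lcn2 rose the most, by 127-fold to 178-fold. Orm2, Saa1, Saa2 and Saa3 rose between 4.01-fold and 27.5-fold and Hp between 1.6-fold and 2.58-fold, while Crp, the human acute phase marker, fell. By edgeR's quasi-likelihood test with Benjamini-Hochberg adjustment over all genes, 6 members rose and 1 fell in WT females, where 24.1% of all 13226 genes tested were called, 13.9% as higher and 10.2% as lower. The same numbers, 6 and 1, were called in Cyp2b-null females, against 30.8% of all genes (16.9% higher and 13.9% lower). In males, 8 rose and 1 fell in WT mice, where 33% of 13460 genes were called (18% higher and 15% lower). In Cyp2b-null males 9 rose and 1 fell, against 37.4% of all genes (20.3% higher and 17.1% lower). The groups of the 2 diets did not overlap for 7 members in WT females (25.8% of all genes), 7 in Cyp2b-null females (30.6%), 8 in WT males (28.4%) and 10 in Cyp2b-null males (36.8%). Tested for any difference among the 4 groups of a sex, 8 of 10 members were called in females (31.7% of all genes), where Orm1 and Apcs were not, and 9 of 10 in males (39.7%), where Orm1 was not. The median log2 fold change of the 10 members was 1.93 in WT females, 2.15 in Cyp2b-null females, 2.72 in WT males and 2.35 in Cyp2b-null males, where the median over all genes tested was between -0.02 and 0.03. The genes of a family neighbor each other and their counts may share reads, so they are not independent of one another.

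**Figure D1:**
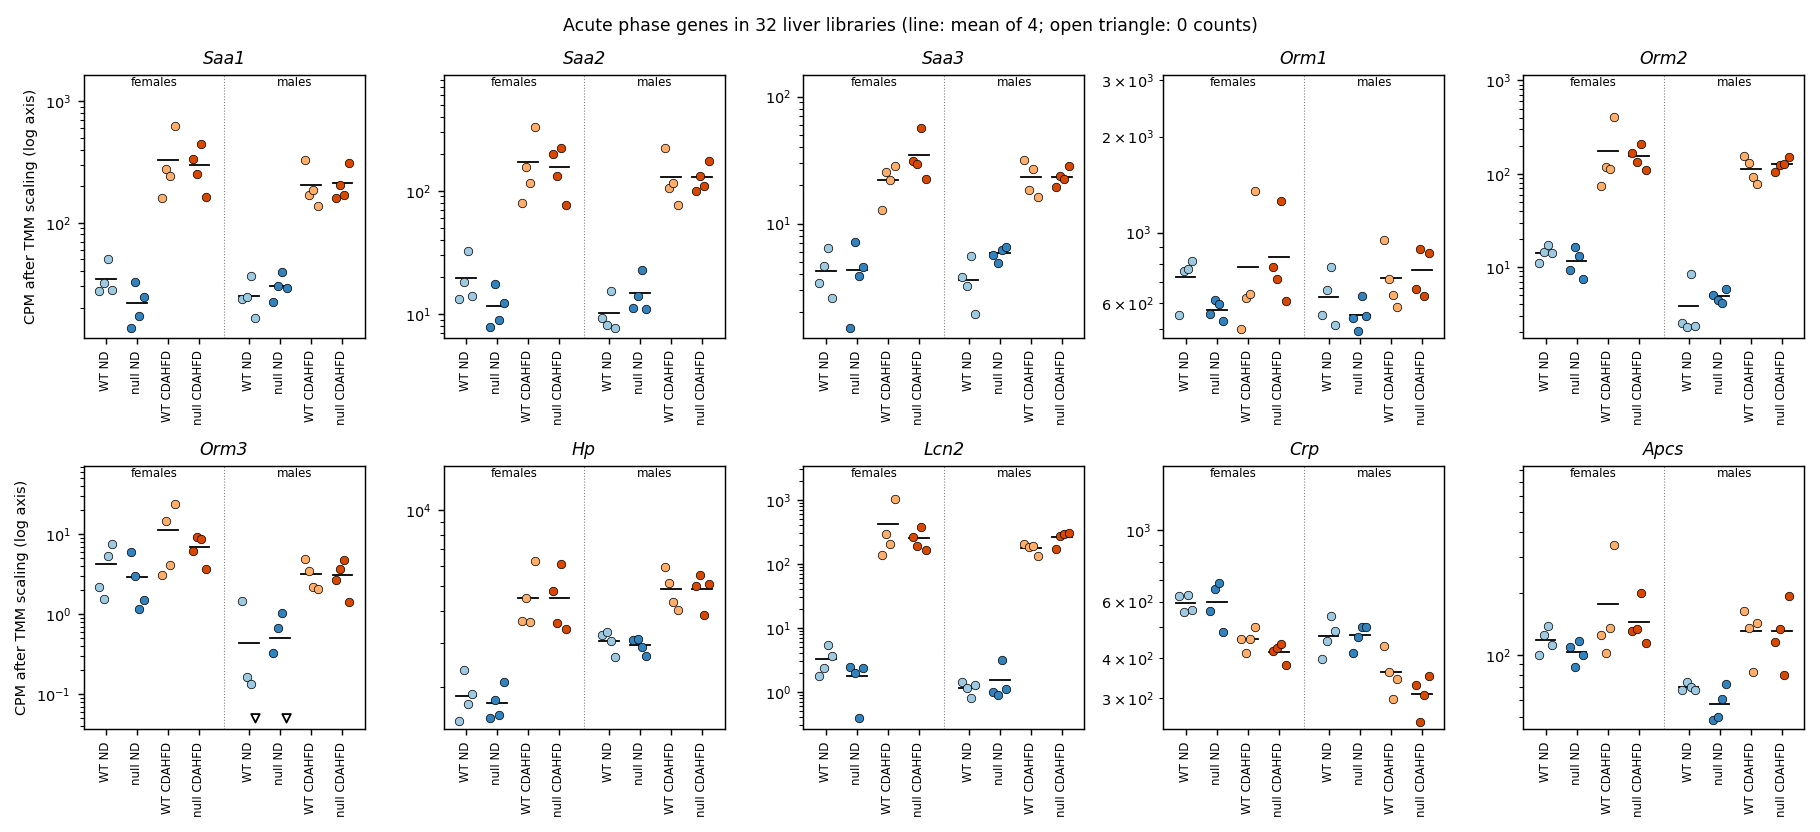
CPM after TMM scaling (log axis) of the 10 acute phase genes in each of 32 liver libraries, by genotype and diet, females left and males right of the dotted line in each panel; a line marks the mean of 4 libraries and an open triangle a library with 0 counts. Lcn2 lies at or under 5.42 CPM in every ND-fed library and at or above 133 CPM in every CDAHFD-fed library, while the group means of Crp lie lower on CDAHFD with TMM scaling.

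The serum amyloid A proteins are apolipoproteins of high-density lipoprotein during inflammation. Saa1 and Saa2 are made by hepatocytes, and Saa3 in many tissues, macrophages and adipocytes among them. Saa1 was at 27.2, 32, 50.2 and 28.1 CPM in the 4 ND-fed WT females and at 159, 278, 241 and 625 CPM in CDAHFD-fed WT females. It was at 13.7, 32.6, 17.2 and 24.3 CPM in ND-fed Cyp2b-null females and at 334, 251.04, 445 and 162 CPM in those on CDAHFD. No CDAHFD-fed female overlapped with an ND-fed female of her genotype, and the highest library, WT female replicate 4 on CDAHFD, stood at 625 CPM where the next of its group had 278. The log2 fold change was 3.26 ± 0.38 (SE) in WT females (adjusted p = 2.56e-06, edgeR) and 3.73 ± 0.39 in Cyp2b-null females (adjusted p = 6.15e-07). In males Saa1 went from 23.4, 24.5, 36.1 and 16.3 CPM to 328, 169, 187 and 137 CPM in WT mice, and from 22.2, 30, 39.3 and 28.8 CPM to 160, 206, 168 and 310 CPM in Cyp2b-null mice. These are log2 fold changes of 3.02 ± 0.28 (adjusted p = 6.53e-08) and 2.82 ± 0.28 (adjusted p = 9.81e-08). The groups did not overlap in either genotype.

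Saa2 ran beside Saa1 at a lower level. ND-fed WT females had 13.2, 18.3, 32.2 and 14 CPM and CDAHFD-fed WT females 79.4, 157, 117 and 332 CPM, and WT males went from 9.23, 8.13, 15.5 and 7.73 CPM to 223, 105, 115 and 76.9 CPM. In Cyp2b-null females it went from 7.89, 17.4, 8.97 and 12.2 CPM to 200, 131, 223 and 76.6 CPM, and in Cyp2b-null males from 11.2, 13.9, 22.8 and 10.9 CPM to 100, 131, 109 and 174 CPM. Saa2 rose 9.08-fold and 13.1-fold in WT and Cyp2b-null females and 12.6-fold and 8.83-fold in WT and Cyp2b-null males, with no overlap between diets (adjusted p between 2.72e-08 and 9e-06, edgeR). Saa3 was lower still: 3.4, 4.68, 6.44 and 2.6 CPM on ND against 12.7, 25.5, 21.9 and 28.5 CPM on CDAHFD in WT females, and 3.8, 3.25, 5.52 and 1.93 CPM against 31.7, 18.4, 26.7 and 16.3 CPM in WT males. In Cyp2b-null mice Saa3 went from 1.52, 7.21, 3.9 and 4.56 CPM to 30.9, 29.6, 56.6 and 22.5 CPM in females and from 5.69, 4.92, 6.21 and 6.54 CPM to 19.6, 23.8, 22.4 and 28.3 CPM in males. It rose 5.53-fold and 6.21-fold in WT females and males, and 7.65-fold and 4.01-fold in Cyp2b-null females and males (adjusted p between 9.39e-08 and 4.75e-05, edgeR), again with no overlap. Saa4, the constitutive family member and no member of the 10, did not pass the test in WT females (log2 fold change 0.05), Cyp2b-null females (-0.05) or WT males (-0.31), and fell by 0.49 on the log2 scale in Cyp2b-null males (adjusted p = 0.0466, edgeR).

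Shares of counts within a family are free of scaling between libraries. Saa2 was 35.4% ± 2.97 (SD, n = 4) of Saa1 and Saa2 counts in ND-fed WT females and 34.2% ± 1.55 in those on CDAHFD (exact two-sided permutation test, p = 0.457). In WT males it rose from 28.8% ± 3.07 to 38.2% ± 1.88 (exact permutation p = 0.0286, the smallest that 4 against 4 allow, adjusted p = 0.0416 over 16 tests of shares). In Cyp2b-null males the share was 32.3% ± 3.84 on ND and 38.2% ± 1.48 on CDAHFD, with an exact permutation p of 0.0571. Saa3 made up 7.33% ± 1.14 of the 3 genes' counts in ND-fed WT females and 4.81% ± 1.31 on CDAHFD (exact permutation p = 0.0286), and fell from 12% to 6.65% in Cyp2b-null males (exact permutation p = 0.0286). In Cyp2b-null females (10.8% and 7.28%) and WT males (9.15% and 6.72%) the exact p-values were 0.114 and 0.0571. Diets were compared within sex and genotype only, and the difference of these shares between sexes was not tested.

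The orosomucoids, or alpha-1-acid glycoproteins, are lipocalin-fold plasma proteins that bind drugs and other small lipophilic molecules. Orm1 was at rank 2 of the 10 genes per kilobase of transcript in every group, and it did not move with the diet as Orm2 did. ND-fed WT females had 552, 760, 768 and 814 CPM of Orm1 and CDAHFD-fed WT females 497, 625, 640 and 1352 CPM. In WT males the values were 553, 660, 783 and 514 CPM on ND and 951, 718, 639 and 584 CPM on CDAHFD. The groups overlapped in both sexes, with log2 fold changes of 0.11 ± 0.25 (95% interval -0.38 to 0.59, adjusted p = 0.805, edgeR) in WT females and 0.20 ± 0.17 (-0.12 to 0.53, adjusted p = 0.372) in WT males. Without WT female replicate 4 on CDAHFD, the log2 fold change in WT females was -0.30. In Cyp2b-null females Orm1 was at 557, 614, 599 and 527 CPM on ND and 781, 718, 1257 and 609 CPM on CDAHFD, which did not pass the test (0.55 ± 0.25, adjusted p = 0.0987). That value was called with library sizes alone (0.78, adjusted p = 0.0131), without the filter on low counts, when only the groups compared were fitted and in 1 fit without 1 library. In Cyp2b-null males it rose from 538, 493, 632 and 550 CPM to 667, 890, 633 and 862 CPM (log2 fold change 0.46 ± 0.17, adjusted p = 0.0323). That call was lost in 5 of the fits without 1 library.

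Orm2 rose in every group. In WT females it went from 11, 14.4, 17.3 and 14 CPM to 73.8, 117, 113 and 406 CPM, and in Cyp2b-null females from 9.41, 16.4, 13.3 and 7.43 CPM to 168, 133, 210 and 109 CPM. In males the ND values were 2.53, 2.28, 8.35 and 2.36 CPM in WT and 5.03, 4.47, 4.14 and 5.89 CPM in Cyp2b-null mice, and the CDAHFD values were 154, 130, 92.9 and 77.6 CPM in WT and 103, 123, 126 and 151 CPM in Cyp2b-null mice. The log2 fold changes were 3.67 ± 0.42 and 3.74 ± 0.43 in WT and Cyp2b-null females and 4.78 ± 0.31 and 4.68 ± 0.30 in WT and Cyp2b-null males (adjusted p between 5.42e-10 and 2.33e-06, edgeR). Single libraries moved these values: the log2 fold change was 2.85 in WT females without replicate 4 on CDAHFD and 5.56 in WT males without ND replicate 3. The composition of the family changed with the diet. Orm2 was 1.92% ± 0.21 of Orm1, Orm2 and Orm3 counts in ND-fed WT females and 16.5% ± 4.33 on CDAHFD, where the 4 libraries stood at 12.9%, 15.4%, 14.9% and 22.8%. In Cyp2b-null females it rose from 1.95% to 15.6%, in WT males from 0.578% to 13.4% and in Cyp2b-null males from 0.883% to 14.2%. Each of these 4 differences had an exact permutation p of 0.0286 and an adjusted p of 0.0416. The lowest CDAHFD-fed library of all, at 11.7%, stood above the highest ND-fed library, at 2.59%.

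Orm3 was the least expressed of the family and rests on few counts. It had 4 to 44 counts in ND-fed WT females (2.2, 1.56, 5.42 and 7.62 CPM) and 14 to 149 counts on CDAHFD (3.12, 14.6, 4.1 and 24 CPM), and the groups overlapped. In Cyp2b-null females 6.07, 3, 1.17 and 1.52 CPM on ND compared with 6.23, 9.21, 8.84 and 3.73 CPM on CDAHFD, again with overlap. Its log2 fold change was 1.39 ± 0.56 in WT females (adjusted p = 0.0762, edgeR) and 1.27 ± 0.62 in Cyp2b-null females (adjusted p = 0.127). Neither passed, and both depended on the setting: in WT females the value was 0.69 without replicate 4 on CDAHFD, and it was called with library sizes alone (1.72), without the filter on low counts (1.35) and in 3 of the fits without 1 library, the highest at 1.95. In Cyp2b-null females it was called without the filter and when only the groups compared were fitted. In males it was at 1.45, 0.163, 0.135 and 0 CPM in ND-fed WT mice and 4.85, 3.48, 2.19 and 2.1 CPM on CDAHFD, and at 0.328, 0.671, 1.04 and 0 CPM against 2.69, 3.69, 4.77 and 1.41 CPM in Cyp2b-null mice. These rises were called, at 2.81 ± 0.68 (adjusted p = 0.00297) and 2.70 ± 0.66 (adjusted p = 0.00262), and the groups did not overlap, but ND-fed males had 0 to 8 counts, so that the size of the fold depends on the prior count of the fit. Without ND replicate 1, the library with 8 counts, the log2 fold change in WT males was 4.61.

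**Figure D2:**
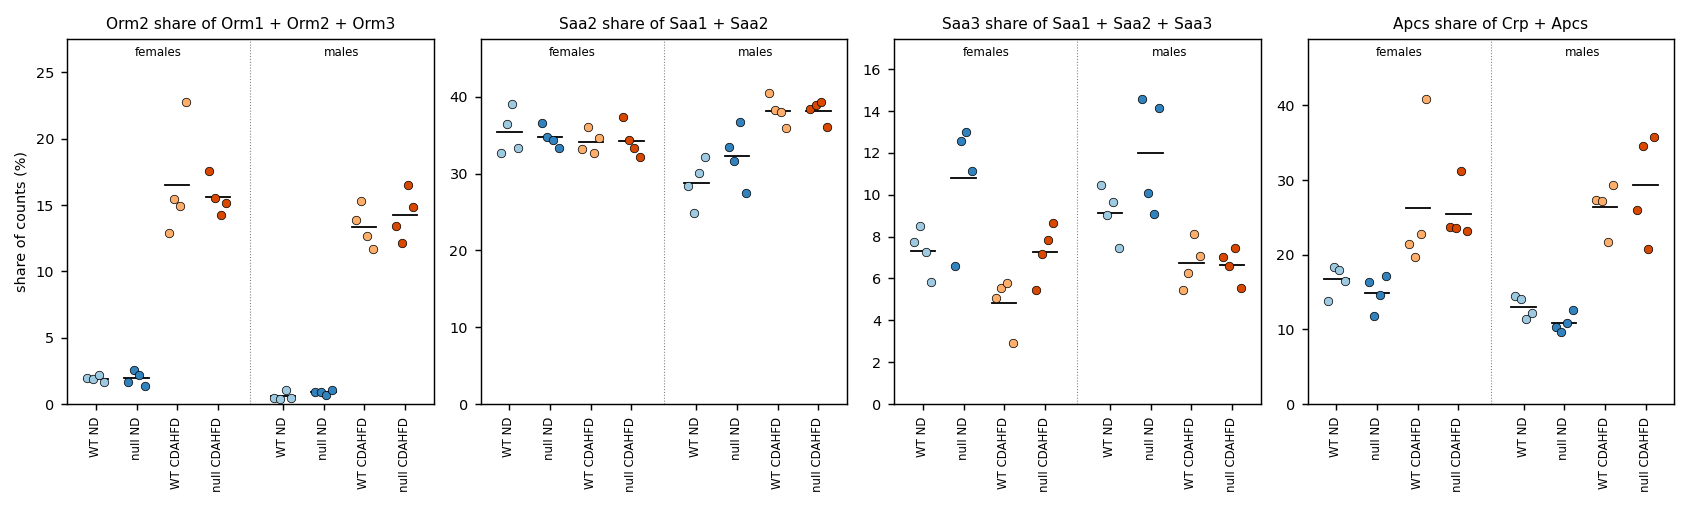
Share of counts (%) of Orm2 among the 3 Orm genes, Saa2 among Saa1 and Saa2, Saa3 among the 3 Saa genes, and Apcs among Crp and Apcs, in each library; lines mark group means, n = 4. The Orm2 panel separates the diets without overlap, from 2.59% or less on ND to 11.7% or more on CDAHFD, while the Saa2 share in females stays near 34% to 35% on both diets.

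Haptoglobin binds free hemoglobin, and lipocalin 2 binds bacterial siderophores and so withholds iron from bacteria. Hp was the most abundant of the 10 genes per kilobase in every group. It went from 1475, 2332, 1714 and 1880 CPM to 3650, 4484, 3621 and 6304 CPM in WT females, and from 1510, 1776, 1563 and 2094 CPM to 4813, 3582, 6117 and 3407 CPM in Cyp2b-null females. In males it went from 3204, 3295, 3045 and 2638 CPM to 5960, 5146, 4356 and 4027 CPM in WT and from 3073, 3104, 2890 and 2650 CPM to 5000, 5528, 3857 and 5102 CPM in Cyp2b-null mice. Diets did not overlap in any of the 4 pairs. Hp rose 2.44-fold in WT females (adjusted p = 8.91e-05, edgeR), 2.58-fold in Cyp2b-null females (adjusted p = 4.44e-05), 1.6-fold in WT males (adjusted p = 0.00147) and 1.66-fold in Cyp2b-null males (adjusted p = 0.000586). Hp made up 54.7% ± 4.26 of the counts of the 10 genes in ND-fed WT females and 71.6% ± 3.22 in ND-fed WT males.

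Lcn2 was near the floor on ND. ND-fed WT females had 9, 6, 16 and 21 counts (1.8, 2.34, 5.42 and 3.64 CPM) and CDAHFD-fed WT females 613, 1204, 1010 and 6491 counts (137, 292, 207 and 1046 CPM). In Cyp2b-null females 8, 10, 1 and 14 counts on ND (2.43, 2, 0.39 and 2.36 CPM) compared with 264, 191, 378 and 167 CPM on CDAHFD. WT males had 1.45, 1.14, 0.808 and 1.29 CPM on ND and 206, 185, 188 and 133 CPM on CDAHFD. Cyp2b-null males had 0.984, 0.895, 3.11 and 1.09 CPM on ND and 174, 270, 298 and 304 CPM on CDAHFD. WT female replicate 4 stood far above the 3 other libraries of its group. The log2 fold change was 7.02 ± 0.61 in WT females (adjusted p = 5.66e-08, edgeR), 6.99 ± 0.64 in Cyp2b-null females (adjusted p = 9.23e-08), 7.26 ± 0.29 in WT males (adjusted p = 7.44e-13) and 7.47 ± 0.28 in Cyp2b-null males (adjusted p = 2.89e-13). Without WT female replicate 4 it was 6.03 in WT females. Neutrophils also make Lcn2, and the summed CPM of 8 neutrophil markers rose with it, from 0.346 to 2.71 CPM in ND-fed and 9.43 to 14 CPM in CDAHFD-fed WT females, and from 0.181 to 2.11 and 4.85 to 9.33 CPM in WT males. Of these markers Ly6g, a defining surface protein, was at 0 in every library of all 8 groups, and the 2 that passed the filter on low counts, S100a8 and S100a9, were called higher in all 4 diet comparisons. Markers of bile duct cells (cholangiocytes) were also higher in sum: the summed CPM of 5 markers was 37.8 to 62.0 on ND and 113.76 to 211.23 on CDAHFD in WT females and 22.6 to 30.9 and 97.6 to 242 in WT males. Singly, 2 of 5 were called higher and 3 were not called in each of these comparisons. Over all genes tested, 13.9% were called higher in WT females and 18% in WT males. The part of either cell type in the Lcn2 result was not tested.

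The pentraxins are disk-shaped proteins that bind phosphocholine and other ligands on damaged cells and microbes and recruit complement. Crp was the one member that fell. It was at 623, 556, 629 and 567 CPM in ND-fed WT females and 458, 415, 459 and 500 CPM on CDAHFD, and at 560, 658, 688 and 482 CPM against 421, 431, 443 and 381 CPM in Cyp2b-null females. In males the values were 398, 452, 541 and 484 CPM on ND against 436, 363, 299 and 345 CPM on CDAHFD in WT mice, where the groups overlapped, and 416, 466, 501 and 500 CPM against 329, 253, 306 and 351 CPM in Cyp2b-null mice. The log2 fold change was -0.37 ± 0.13 in WT females (adjusted p = 0.0341, edgeR), -0.51 ± 0.13 in Cyp2b-null females (adjusted p = 0.0042), -0.38 ± 0.14 in WT males (adjusted p = 0.0356) and -0.61 ± 0.14 in Cyp2b-null males (adjusted p = 0.00125). The fall depended on the scaling. With library sizes alone, which moved the median of all genes to 0.32 in WT females and 0.37 in WT males, the values were -0.05 and -0.00, and none of the 4 falls was called. In WT mice the call was also lost in 5 of the fits without 1 library in each sex. Hepatocyte markers fell beside Crp: 3 of 5 were called lower in each female comparison and 4 of 5 in each male comparison. These counts moved with the scaling too, to 3 in WT females, 2 in Cyp2b-null females, 0 in WT males and 2 in Cyp2b-null males with library sizes alone, and their part in the result was not tested.

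Apcs did not share this fall. It was at 100, 125, 138 and 112 CPM in ND-fed and 125, 102, 136 and 346 CPM in CDAHFD-fed WT females, which overlapped (log2 fold change 0.58 ± 0.27, 95% interval from 0.04, adjusted p = 0.137, edgeR), and was 0.03 without WT female replicate 4. In Cyp2b-null females it was at 109, 87.7, 117 and 99.6 CPM on ND and 131, 133, 201 and 115 CPM on CDAHFD (0.49 ± 0.28, adjusted p = 0.184). In males Apcs rose. WT males went from 67.7, 73.8, 69.6 and 67.6 CPM to 163, 136, 82.9 and 143 CPM (0.91 ± 0.22, adjusted p = 0.0026), and Cyp2b-null males from 48, 49.9, 61.1 and 72.1 CPM to 116, 134, 79.9 and 195 CPM (1.18 ± 0.22, adjusted p = 0.000216), without overlap between diets. As a share of Crp and Apcs counts, Apcs rose with CDAHFD in all 4 pairs, from 16.7% to 26.2% in WT females, 14.9% to 25.4% in Cyp2b-null females, 13.1% to 26.4% in WT males and 10.9% to 29.3% in Cyp2b-null males (exact permutation p = 0.0286 and adjusted p = 0.0416 for each). The difference of the diet effect between sexes was tested and did not pass for either gene in either genotype.

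**Figure D3:**
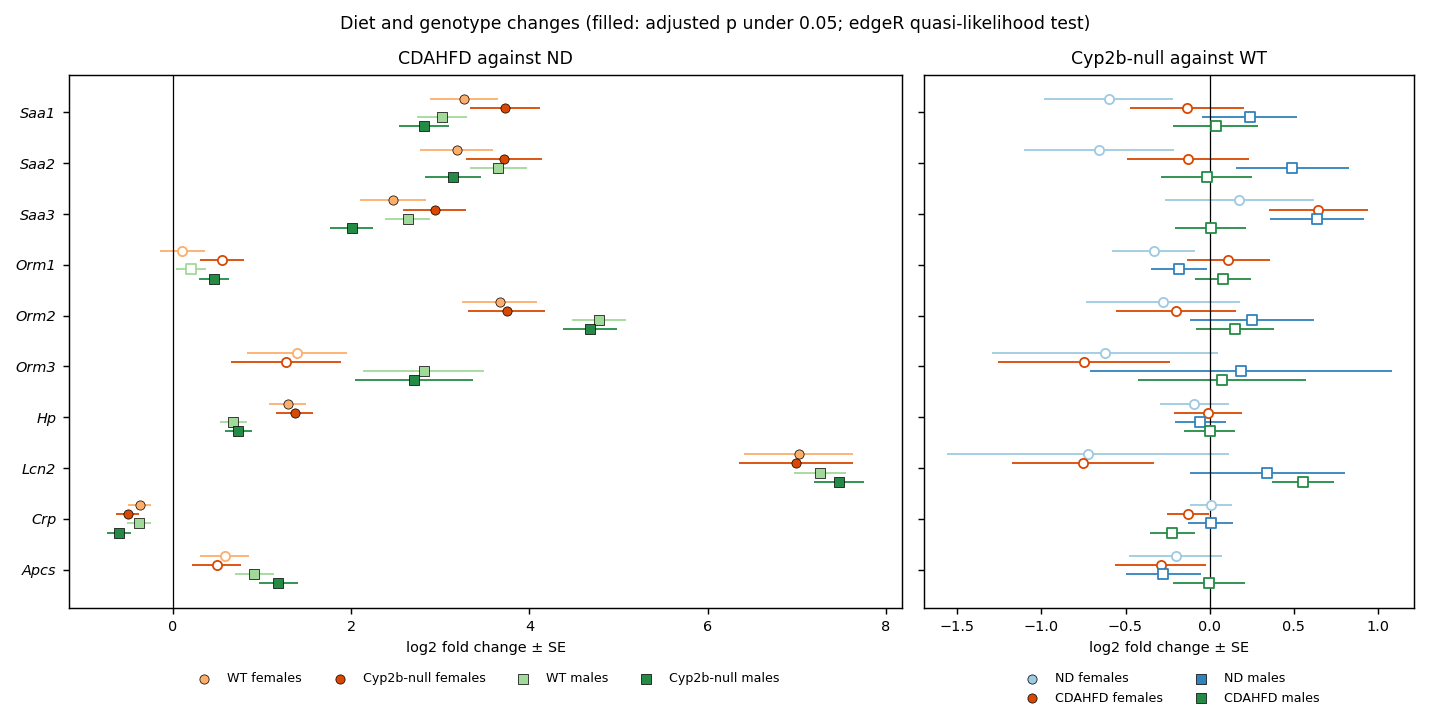
Log2 fold change ± SE of the 10 genes for CDAHFD against ND (left) and for Cyp2b-null against WT (right) in each sex; filled symbols have an adjusted p under 0.05 by edgeR's quasi-likelihood test. Lcn2 lies near 7 in all 4 diet comparisons and Crp left of 0, and no symbol in the genotype panel is filled.

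Per kilobase of transcript, Hp, Orm1 and Crp led the order in all 4 ND-fed groups, followed by Apcs and Saa1. In ND-fed WT females Hp stood at 1376 ± 269 CPM per kilobase (SD, n = 4), Crp at 350.2 ± 22.4 and Lcn2, the last of the 10, at 3.61 ± 1.76. Lcn2 was at rank 10 in both female ND groups and at rank 9 in both male ND groups, where Orm3 was last. On CDAHFD it was at rank 4 in WT females, at 459 ± 461 CPM per kilobase, and in both Cyp2b-null groups, and at rank 6 in WT males, at 195 ± 34.1. In WT females this order rested on replicate 4: without it Lcn2 was at rank 5, at 232 ± 85.0 CPM per kilobase (SD, n = 3), below Crp at 262, while with all 4 libraries Crp was at rank 6. Neighbors in the middle of the CDAHFD order, from Saa1 down to Apcs, overlapped in their ranges in every group. The 10 genes together held 0.301% ± 0.0242 of all counts in ND-fed WT females and 0.796% ± 0.309 in those on CDAHFD, and 0.368% ± 0.0296 and 0.755% ± 0.0798 in WT males.

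Deletion of the Cyp2b genes was compared with WT on each diet. By edgeR's quasi-likelihood test, 0 of 10 members were called on ND in females (0.0756% of all genes called), on CDAHFD in females (0.0227%), on ND in males (0.0371%) or on CDAHFD in males (0.0297%). DESeq2 also called 0 in each of these 4 comparisons. At an unadjusted p under 0.05 there were 0, 1, 1 and 1 members in the same order. The groups of every member overlapped, where 3.64%, 2.83%, 3.87% and 2.56% of all genes did not overlap. The log2 differences lay between -0.73 and 0.18 on ND and -0.75 and 0.64 on CDAHFD in females, and between -0.27 and 0.64 on ND and -0.22 and 0.55 on CDAHFD in males. The width of the 95% intervals differed between members: on ND in females that of Crp ran from -0.24 to 0.25 and that of Lcn2 from -2.37 to 0.91.

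Saa3 and Lcn2 were the members with an unadjusted p under 0.05 in at least 1 of these comparisons. Saa3 in CDAHFD-fed females was at 12.7, 25.5, 21.9 and 28.5 CPM in WT and 30.9, 29.6, 56.6 and 22.5 CPM in Cyp2b-null mice (log2 difference 0.64 ± 0.29, 95% interval 0.07 to 1.22, adjusted p = 0.826, edgeR). In ND-fed males it was at 3.8, 3.25, 5.52 and 1.93 CPM in WT and 5.69, 4.92, 6.21 and 6.54 CPM in Cyp2b-null mice (0.64 ± 0.28, 95% interval 0.08 to 1.19, adjusted p = 0.563, edgeR). Adipocyte markers (4 genes, summed) were at 3.17 to 33.1 CPM in those ND-fed Cyp2b-null males against 0 to 3.25 CPM in ND-fed WT males. The groups overlapped, and the library at 33.1 CPM (replicate 2) had 4.92 CPM of Saa3, the lowest of its group. Only 1 of the 4 markers had enough counts to be tested in males, and it was not called for the genotype. The part of adipocytes in the Saa3 values was not tested. For Lcn2 in CDAHFD-fed mice the log2 difference of Cyp2b-null from WT was -0.75 ± 0.42 in females (95% interval -1.58 to 0.07, adjusted p = 0.826, edgeR) and 0.55 ± 0.18 in males (0.20 to 0.91, adjusted p = 1), neither of which passed. Without WT female replicate 4 the value in females was 0.24. The difference of the genotype effect between the sexes was 1.30 ± 0.50 for Lcn2 (95% interval 0.31 to 2.28, adjusted p = 1, edgeR), with 0.00713% of all genes called, and 0.31 without that library. Diet by genotype interactions of the 10 members lay between -0.14 and 0.53 in females and between -0.63 and 0.27 in males on the log2 scale, and 0 were called by edgeR and by DESeq2, with 0 at an unadjusted p under 0.05. Of all genes, 0% were called for this interaction in females and 0.00743% in males.

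The counts of the sexes were deposited in separate tables, so sex and table cannot be told apart. In ND-fed WT mice, 3 of 10 members differed between the sexes, against 17.8% of all 14020 genes tested in the joint fit (8.35% higher and 9.45% lower in males): Orm2 (log2 male minus female -1.73 ± 0.47, adjusted p = 0.00904, edgeR) and Orm3 (-3.27 ± 0.81, adjusted p = 0.00451) were lower in males and Hp was higher (0.76 ± 0.18, adjusted p = 0.00399). Apcs was at 100 to 138 CPM in females and 67.6 to 73.8 CPM in males without overlap, and did not pass (-0.73 ± 0.27, adjusted p = 0.0572), but that value was called in 5 of 8 alternatives, DESeq2 (adjusted p = 0.0449) and library sizes alone (adjusted p = 0.0193) among them, and in 6 of the fits without 1 library. Single libraries moved the values of Orm2, to -2.50 without WT male replicate 3 on ND, and of Orm3, to -5.04 without replicate 1. Groups did not overlap for 6 members (18.1% of all genes), Lcn2 and Crp among them. Ranges and overlap between the sexes used CPM scaled within each table, while the calls came from the joint scaling of the 32 libraries. No member was called for a difference of the diet effect between the sexes, in WT (0.97% of all genes called) or in Cyp2b-null mice (3.4%), by edgeR or DESeq2. At an unadjusted p under 0.05 there was 1 in each genotype, Hp. For Orm2 in WT mice the diet effect in males minus that in females was 1.14 ± 0.57 on the log2 scale (95% interval 0.02 to 2.26, unadjusted p = 0.054 and adjusted p = 0.502, edgeR). Without WT female replicate 4 this was 1.95 and called (adjusted p = 0.016).

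Single libraries stood at the same end of their group for most or all of the 10 genes. WT female replicate 4 on CDAHFD was the highest of its 4 libraries for all 10 members, and so was WT male replicate 1 on CDAHFD. In CDAHFD-fed Cyp2b-null females replicate 3 was highest for 9 members and replicate 4 lowest for all 10, and in CDAHFD-fed Cyp2b-null males replicate 4 was highest for 7. The summed CPM of hepatocyte markers was the highest of the group in WT male replicate 1 (102374), Cyp2b-null female replicate 3 (119141) and Cyp2b-null male replicate 4 (83986). It was the lowest in Cyp2b-null female replicate 4 (78007). In WT female replicate 4 it was the lowest (77691) while the members were highest. Other libraries also stood at 1 end. CDAHFD-fed WT male replicate 4 was lowest for 8 members. CDAHFD-fed WT female replicate 1, ND-fed WT female replicate 1 and ND-fed WT male replicate 4 were lowest for 7. ND-fed WT female replicate 3 was highest for 7. There the hepatocyte sum was lowest in ND-fed WT female replicate 1 (130178) and highest in CDAHFD-fed WT female replicate 1 (106047). In the others it stood at neither end. TMM factors of WT male replicate 1 (1.02), Cyp2b-null female replicate 3 (0.98) and Cyp2b-null male replicate 4 (1.03) were the lowest of their groups, and a lower factor gives a higher CPM. The factor of Cyp2b-null female replicate 4 (1.17) was the highest of its group, and that of WT female replicate 4 was 1.14. Neutrophil markers summed to 14 CPM in WT female replicate 4, the highest of its group, and to 4.85 CPM in WT male replicate 1, the lowest. The part of these measures in the pattern was not tested. All libraries were kept here, also the pair of CDAHFD-fed Cyp2b-null libraries (female replicate 3, male replicate 4) that the study left out of its heat maps.

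As deviations from the group mean of log2 CPM over 32 libraries, 43 of 45 pairs of members correlated positively, with a median Pearson r of 0.527. By a permutation test within groups with 100000 resamples, 31 pairs had an adjusted p under 0.05, all of them positive, and 24 had it for Spearman's rho as well. Saa1 and Saa2 were closest (r = 0.965, rho = 0.909, permutation p = 1e-05, the smallest these resamples can give). Across families Saa1 went with Orm1 (r = 0.821, rho = 0.774, permutation p = 1e-05) and Hp (r = 0.691, rho = 0.667, permutation p = 0.00065 for each), and without the 2 libraries farthest from the median of Saa1 r was 0.746 and 0.587. Crp stood apart from Hp (r = 0.0247, rho = 0.0257, permutation p = 0.895 for each) and Lcn2 (r = -0.00399, rho = 0.0568, permutation p = 0.984 and 0.783). All 31 called pairs kept a positive r without the 2 farthest libraries, and all 31 were positive within females and within males. Median r was 0.63 in females and 0.419 in males. With library-size scaling alone 21 pairs were called, and 20 were called without WT female replicate 4 or without Cyp2b-null female replicate 3. For comparison, the median r of Orm1 with the other 9 members was 0.76 and its median r with 12968 other genes -0.02, and 0.0463% of those genes reached 0.76. For Saa1 the corresponding values were 0.691 and 0.0925%, for Lcn2 0.525 and 0.54%, and for Orm3, the member with the fewest counts, 0.331 and 7.39%.

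**Figure D4:**
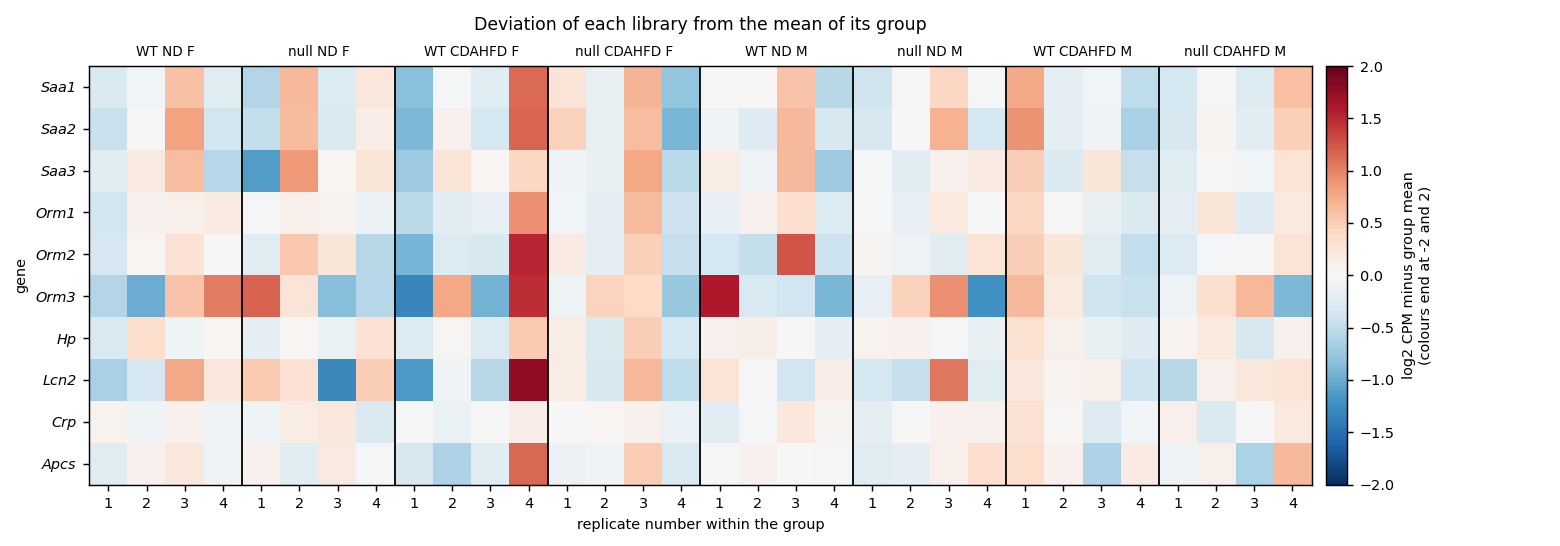
Deviation of each library from the mean of its group in log2 CPM, for the 10 genes (rows) and 32 libraries (columns, by group and replicate number); red is above and blue below the group mean, and colors end at -2 and 2. The column of CDAHFD-fed WT female replicate 4 is above the mean for all 10 genes, and that of CDAHFD-fed Cyp2b-null female replicate 4 is below it for all 10.

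Genes outside the 10 that followed them most closely within groups were ranked by Pearson r over 32 libraries among 12978 genes compared. For Saa1 they were Gm31271 (r = 0.755), Mbl1, mannose-binding lectin (0.743), and Lrg1, leucine-rich alpha-2-glycoprotein (0.742). For Lcn2 they were Serpina3n, an antichymotrypsin homolog (0.724), Gm14038 (0.711) and Lrg1 (0.686). For Orm2 they were Metap2 (0.679), Serpina10 (0.679) and Dap (0.665). Without CDAHFD-fed WT female replicate 4, r was 0.569, 0.51 and 0.597 for the genes named for Orm2, in that order. For those of Lcn2 it was then 0.612, 0.628 and 0.534, and for those of Saa1 0.79, 0.743 and 0.669. Libraries share depth and scaling, so these values are descriptions.

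Other genes of the response did not move as 1 block. Of 36 other positive acute phase genes tested, 8 rose and 15 fell in WT females, and 10 rose and 15 fell in WT males (median log2 fold changes -0.23 and -0.15). Over all genes tested, 13.9% rose and 10.2% fell in WT females, and 18% rose and 15% fell in WT males. Risers in both sexes of WT mice included Il1rn, the interleukin-1 receptor antagonist (2.84 and 4.2), Lrg1 (1.84 and 0.88), the heme-binding hemopexin gene Hpx (0.92 and 0.89), Steap4 (1.59 and 1.78) and Serpina3n (0.82 and 0.63). The 3 fibrinogen chains fell in WT females (Fga -0.58, Fgb -0.60, Fgg -0.59) and WT males (Fga -0.81, Fgb -1.0, Fgg -0.96), as did the iron regulator hepcidin (Hamp -0.80 and -0.93). The alpha-1-antitrypsin genes Serpina1a to Serpina1d fell in both, by between 0.75 and 1.73 on the log2 scale, and their near-identical copies may share reads. Complement C3 did not pass in either (-0.09 and 0.17). Among 14 negative acute phase genes, 8 fell and 0 rose in WT females and 11 fell and 1, transferrin (Trf, 0.44), rose in WT males. Albumin (Alb) fell by 0.77 and 0.65 and transthyretin (Ttr) by 0.83 and 0.75 on the log2 scale. The falls depended on the scaling. With library sizes alone, 12 of the 36 positive acute phase genes rose and 7 fell in WT females and 15 rose and 11 fell in WT males, and of the negative ones 6 and 3 fell. The fibrinogen chains were then not called in WT females and still fell in WT males, Hamp was called in neither, and Alb and Ttr were not called in WT males.

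Of the inducing cytokines, 5 of 14 had enough counts to be tested. Il6, Il1b and Tnf are the textbook ligands, and of these only Il1b was tested: its log2 fold change was 0.88 in WT females (adjusted p = 0.245, edgeR) and 1.87 in WT males (adjusted p = 0.0252). Il33 rose in WT females (1.33) and WT males (2.19). Of the 5 cytokines, 1 rose and 0 fell in WT females, and 3 rose and 1 fell in WT males. With library sizes alone 2 and 3 rose and 0 fell. In Cyp2b-null mice 0 of the 5 were called in females, and 2 rose and 1 fell in males. Over all genes tested, 13.9% rose and 10.2% fell in WT females, and 18% and 15% in WT males. In Cyp2b-null females 16.9% rose and 13.9% fell, and in Cyp2b-null males 20.3% and 17.1%. Of 13 receptors tested, 4 rose and 3 fell in WT females and 8 rose and 3 fell in WT males, where 13.9% of all genes tested rose and 10.2% fell in females and 18% rose and 15% fell in males. With library sizes alone these counts were 7 and 1 in WT females and 8 and 2 in WT males. The interleukin-6 receptor Il6ra did not pass in WT mice (-0.78 and 0.04), while the oncostatin M receptor Osmr rose in WT males (1.97, and with library sizes alone also in WT females) and the leukemia inhibitory factor receptor Lifr fell in both sexes (-1.14 and -1.63).

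Of 26 transducers and transcription factors, 7 rose and 3 fell in WT females, and 7 rose and 4 fell in WT males. Over all genes tested, 13.9% rose and 10.2% fell in WT females, and 18% rose and 15% fell in WT males. With library sizes alone 12 of the 26 rose and 1 fell in WT females and 15 rose and 1 fell in WT males. The split between risers and fallers thus depended on the scaling. In Cyp2b-null females 7 rose and 6 fell, against 16.9% and 13.9% of all genes. In Cyp2b-null males 10 rose and 4 fell, against 20.3% and 17.1%. Risers in both sexes of WT mice included 4 members of the NF-kB family, Relb (2.0 and 2.69), Nfkb2 (2.0 and 1.98), Nfkb1 (0.48 and 0.78) and Rela (0.70 and 0.51). The NF-kB regulator Nfkbiz (1.01 and 1.19) rose as well. The values of the genes that fell in WT mice are not given here. Stat3 did not pass in WT mice (0.13 and -0.08), but was called higher in WT females with library sizes alone (0.45). Its feedback inhibitor Socs3 rose in WT females (1.28, adjusted p = 0.0153, edgeR), with 0.80 in WT males (adjusted p = 0.186; 1.22 and called with library sizes alone). Of the C/EBP genes, Cebpd rose in WT males (1.11, adjusted p = 0.0105), with 0.61 in WT females (adjusted p = 0.28), and Cebpb did not pass in WT females (-0.27) or WT males (0.10). In the test of the difference of the diet effect between the sexes, 0 of the 26 were called in WT mice and 3 in Cyp2b-null mice. Of all genes tested, 0.97% were called for this difference in WT mice and 3.4% in Cyp2b-null mice. The 3 genes, with a higher effect in males, were the kinase gene Jak1 (0.68), Relb (1.84) and the glucocorticoid-induced Fkbp5. They were named after their values were seen. For Socs3 in WT mice that difference was -0.46 ± 0.64 (adjusted p = 0.902, edgeR) and for Cebpd 0.53 ± 0.53 (adjusted p = 0.835).

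Of the receptors and partners of the members, 9 of 16 rose and 1 fell in WT females, and 12 of 15 rose and 1 fell in WT males. Over all genes tested, 13.9% rose and 10.2% fell in WT females, and 18% rose and 15% fell in WT males. With library sizes alone 12 of the receptors and partners rose and 1 fell in each sex. The risers included the 3 chains of C1q that pentraxins bind (C1qa 0.98 and 2.05, C1qb 1.09 and 2.42, C1qc 1.01 and 2.08), the Fc receptors Fcgr1 (1.37 and 2.27) and Fcgr3 (1.18 and 2.61), and Tlr2 (3.01 and 3.07), a receptor of serum amyloid A. Cd163, the macrophage receptor for haptoglobin and hemoglobin, fell in WT females (-3.64) and WT males (-3.00) while Hp rose. Most of these genes are macrophage genes, and markers of macrophages and Kupffer cells changed as well: 5 of 8 rose and 2 fell in WT females and 6 rose and 1 fell in WT males, where Itgax rose (5.01 and 5.15) and the resident Kupffer cell gene Timd4 fell (-4.15 and -2.07). Their summed CPM was 265 to 387 on ND and 344 to 421 on CDAHFD in WT females, and 120 to 218 and 258 to 507 in WT males. Of 6 stellate cell and fibroblast markers 4 rose in each sex of WT mice. The part of these cell types in the receptor results was not tested.

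**Figure D5:**
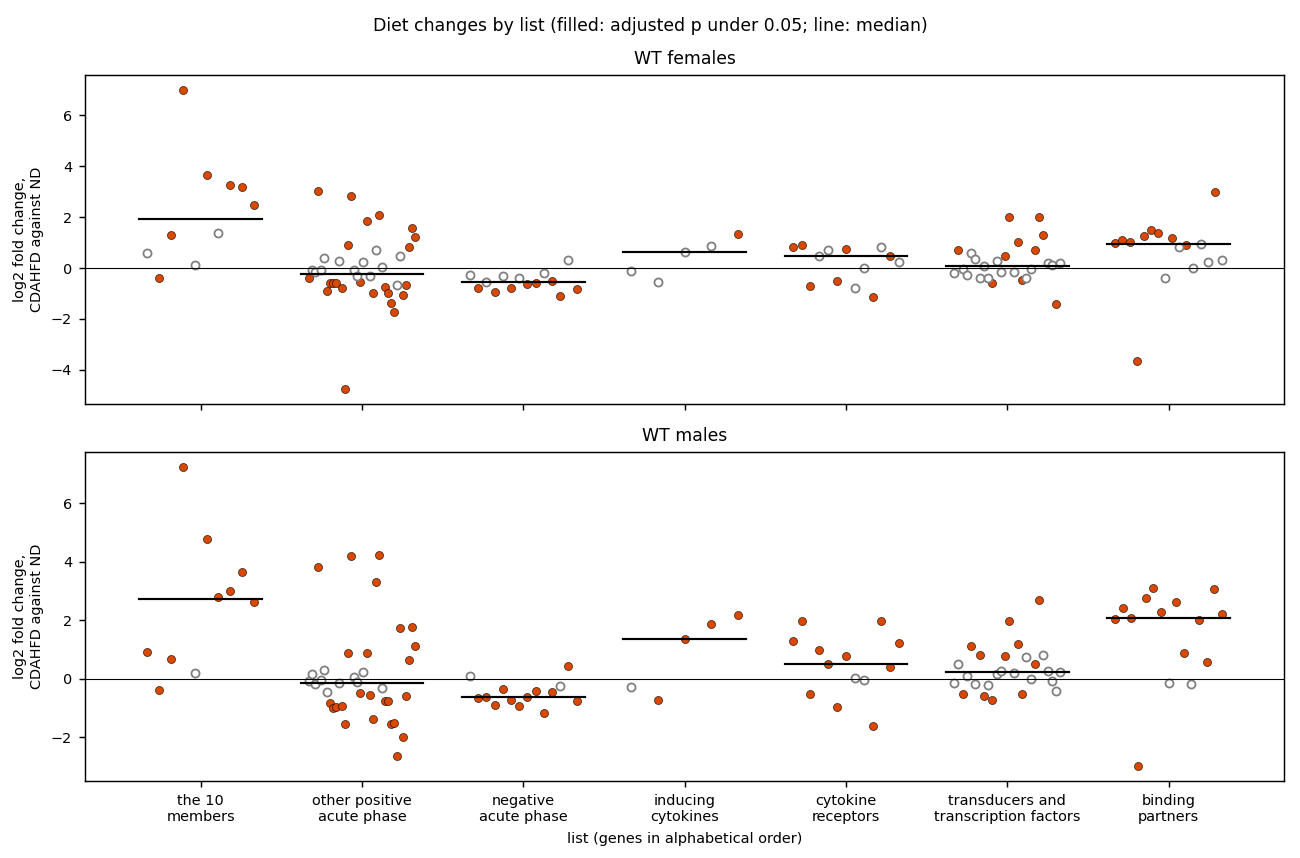
Log2 fold change of CDAHFD against ND in WT females (top) and WT males (bottom) for the 10 members and 6 lists of related genes, each point a gene in alphabetical order, filled where the adjusted p is under 0.05, with the median as a line. The medians of the members (1.93 and 2.72) and of their binding partners (0.96 and 2.08) lie above 0, and those of the negative acute phase genes (-0.56 and -0.62) below it.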

How the data were processed

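Liver RNA-seq of 32 mice was used. RNA came from TRIzol extracts and libraries from a NEB Next Ultra kit. Per the labels and the study's methods, the authors used FastQC and Trimmomatic on the reads, GSNAP for alignment (GRCm38.p6) and featureCounts of Subread to count reads per gene. Versions, strand setting and treatment of reads that map more than once are not given in the sources used here. The deposited values are raw counts, in 1 table for females and 1 for males, 16 libraries each, and 0 columns were left unused. Of 41585 entries, 27 had dates for symbols and 4 were listed more than once.

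Groups and replicate numbers were taken from titles. Genes were filtered with filterByExpr (smallest count 10, smallest total 15) and scaled with TMM. The 4 groups of each sex were fitted together with edgeR 4.0.16 (R 4.3.3, limma 3.58.1) and tested with the quasi-likelihood test. P-values were adjusted by Benjamini-Hochberg over all genes tested, with 0.05 as the threshold for a call. Fits over 32 libraries gave sex differences. Confidence intervals of 95% are the estimate ± 1.96 SE. They are approximate and somewhat narrow, so an interval can leave out 0 where the unadjusted p of the quasi-likelihood test is above 0.05. Deviations used log2 CPM with a prior count of 2. Shares were compared with exact two-sided permutation tests, 16 in all. Promoters came from RefSeq (GRCm38.p6) and transcript lengths from GENCODE vM21. Simulated libraries with known changes were used to test the fit: of genes changed 2-fold for the diet in WT mice, 54% of 100 were called in females and 65% of 100 in males, and of those changed 4-fold 99% and 94%, with 0 wrong signs. Among genes left unchanged, 9 were called in females and 6 in males. Few genes changed there, up and down in equal number, so the simulation cannot test the scaling between libraries. Its call rates may not hold where many genes change.

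The members and the gene lists were chosen with earlier results of these data known. The 10 members were named in full. From the lists, genes with known roles were named with their values, and neighbors in expression only for Saa1, Lcn2 and Orm2. Replicates of a group differed beyond counting noise (chi-square per degree of freedom of at least 3.34), so each was counted as its own sample. Each library is taken as 1 mouse. Alternatives were DESeq2 1.42.0, RLE factors, library size only, no filter, at least 1 CPM in at least 4 libraries, only the groups compared, the replicate number as a block, each library left out in turn and an adjusted p under 0.1. Alternatives for the correlations and for the levels per kilobase, and library size only for the lists, were chosen after the data were seen.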

Additional observations from a re-analysis of the deposited data

Results flagged for a closer look

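In 7 of 80 sets of 4 libraries (10 genes in 8 groups), the highest library stood apart from the 3 others by more than Dixon's 95% critical value allows. That value assumes normal data, and CPM were used without a log, some from few counts, so no chance rate is given. CDAHFD-fed WT female replicate 4 was this library for 4 genes, at 1352 CPM of Orm1, 406 CPM of Orm2, 1046 CPM of Lcn2 and 346 CPM of Apcs. The 4 flags come from 1 library and are not independent. ND-fed WT male replicate 3 stood apart for Orm2 (8.35 CPM), ND-fed WT male replicate 1 for Orm3 (1.45 CPM) and ND-fed Cyp2b-null male replicate 3 for Lcn2 (3.11 CPM). The last of these rests on 15 counts and the Orm3 value on 8.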

How the results depend on the processing

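Of 398 refits of single members without leaving out a library, 369 kept their direction and their side of the threshold, 6 lost and 23 gained a call, and of 896 with 1 library left out, 865, 15 and 13, and 3 changed direction: Orm1 for the diet in WT females (range -0.30 to 0.27) and Lcn2 for the genotype in CDAHFD-fed females (range -1.05 to 0.24). Among members given only as a range, 21 of 696 values and, with 1 library left out, 137 of 1984 changed sign, 0 of them called in either fit. Counts of called members moved by over 1.5 times as follows, and the cause was not tested. Without the low-count filter, 1 member instead of 0 was called for the genotype on CDAHFD in females (Lcn2, -0.74) and in males (Lcn2, 0.56), 1 for the genotype by sex interaction, 1 for the diet by sex interaction in WT and 3 for that in Cyp2b-null mice, and 6 instead of 3 for sex on ND. The count for sex was 5 at an adjusted p under 0.1 and with library size only. With 1 library left out it was 3 to 5, and the count for the diet by sex interaction in WT was 0 to 1 (1 without WT female replicate 4 on CDAHFD). The called pairs of members were 20 to 26 without 1 of 4 libraries, the only ones left out there. With 1 library left out, the counts for the diet were 6 to 8 in WT females, 7 to 9 in Cyp2b-null females, 8 to 9 in WT males and 9 to 10 in Cyp2b-null males. Over the other alternatives they were 7 to 8, 7 to 10, 8 to 9 and 9 to 10 in the same order. These counts pool rises and falls. With library size only, 8, 8, 9 and 9 members rose and 0 fell. Crp was not called without the filter in WT females (adjusted p = 0.0847, edgeR) or in WT males when only the groups compared were fitted (0.0838), and Orm1 was called in WT males with library size only (0.58). Over all genes, no filter changed the number called from 10 to 122 and 3 to 69 for the genotype on ND and on CDAHFD in females, from 5 to 170 and 4 to 51 in males, from 0 to 46 and 1 to 95 for the diet by genotype interactions, from 136 to 469 and 477 to 923 for the diet by sex interactions and from 1 to 49 for genotype by sex. DESeq2 gave 23, 5, 61, 2, 8, 216 and 2 for the genotype on ND and on CDAHFD in females, the genotype on ND in males, the interactions in females and in males, the diet by sex interaction in WT and genotype by sex. Only the groups compared gave 79 for the diet by sex interaction in WT, 2 for the genotype on ND in males, 2 for genotype by sex and 1534 instead of 2496 for sex. The genotype on ND in males gave 3 with library size only, and the interaction in males 2. Shares within a family do not depend on scaling or filter. Same-numbered libraries did not deviate together (r from -0.11 to 0.177 in females and -0.185 to 0.292 in males, 24 pairs each), so the numbers are names; with the replicate number as a block, 7, 7, 9 and 10 members were called for the diet and 0 for the genotype, and all genes called for the genotype on ND in males were 8 instead of 5. Depth limits Orm3 and the ND level of Lcn2.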
